A study of Homo sapiens with 4 samples.

Results

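Control-only distal peaks were the Flag-FLI1 regions called in untreated cells that overlapped no region called in IFN-γ-treated cells and lay away from gene starts. They were selected by 2 criteria, that a peak of the control list overlapped no peak of the IFN-γ list and that it lay more than 3 kb from the transcription start site (TSS) of every annotated transcript. Of the 30819 peaks in the control list, 3328 met both criteria. They made up 25.1% of the 13283 distal control peaks, while 22.5% of all control peaks overlapped no IFN-γ peak. Both shares follow from the selection and describe it only.

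The data came from HK1, an established nasopharyngeal carcinoma cell line, in which FLI1 carrying a Flag tag was overexpressed. Cells received PBS (control) or IFN-γ for 24 h, and chromatin was pulled down through the tag. The pull-down was thus aimed at the introduced protein and not at native FLI1. The samples hold no Flag pull-down from cells without the tag, so binding at single regions was not checked. Each condition had 1 library, so no effect of IFN-γ was tested, and a treatment effect and a difference between 2 libraries cannot be told apart. Peak lists hold no expression values, so the identity of the cells could not be checked against marker genes. For comparison, 9955 distal control peaks with an overlapping peak in the IFN-γ list are called shared distal peaks, and 11140 distal peaks of the IFN-γ list that overlapped no control peak are called IFN-γ-only distal peaks.

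FLI1 belongs to the ETS family of transcription factors, which recognise DNA through a GGAA core, and the bases around the core set how tightly a member binds. Away from promoters, ETS factors often occupy enhancers next to AP-1, the FOS and JUN dimers that bind TGANTCA, and the FLI1 part of the Ewing sarcoma fusion protein is known for binding GGAA units in tandem. CTCF, a zinc finger protein, marks boundaries of chromatin loops, and SP1-type factors bind the GC box GGGCGG.

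The sequences below are from the reference genome GRCh38, plus strand, and surround the summit, the position of the highest signal in a peak. They are shown as examples of the motifs that lie under the summit, and 1 peak can hold several of them. The peak near LINC01648, shown for its octamer 79.5 bp from the summit, also held AP-1 (TGAGTCA) at the summit itself and a GC box. The first 3 carried the ETS octamer CAGGAAGT, printed in capitals on whichever strand it lay (ACTTCCTG is the same octamer read on the other strand), and were the 3 highest by −log10 p of the 281 peaks that had it or CCGGAAGT.
MECOM intron, chr3:169218427-169218507: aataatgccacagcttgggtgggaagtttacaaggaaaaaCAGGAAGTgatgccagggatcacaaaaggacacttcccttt
MGLL intron, chr3:127697066-127697146: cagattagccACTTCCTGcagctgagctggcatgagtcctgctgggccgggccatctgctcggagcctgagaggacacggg
Intergenic, nearest TSS LINC01648, chr1:30009083-30009216: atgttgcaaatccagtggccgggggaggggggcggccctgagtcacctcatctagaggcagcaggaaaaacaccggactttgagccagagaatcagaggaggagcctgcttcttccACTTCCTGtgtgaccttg
The next pair held GGAA units in tandem, in capitals (TTCC on the plus strand), 14 units in the first and 5 in the second.
Intron of the lncRNA gene ENSG00000255139, chr11:59628528-59628640: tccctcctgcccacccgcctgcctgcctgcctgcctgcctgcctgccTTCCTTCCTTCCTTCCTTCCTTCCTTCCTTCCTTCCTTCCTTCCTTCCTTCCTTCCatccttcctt
MAP1B intron, chr5:72174835-72174915: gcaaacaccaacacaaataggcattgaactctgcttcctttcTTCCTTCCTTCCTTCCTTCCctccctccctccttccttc
Both AP-1 examples held TGACTCA, in capitals.
WNT3 intron, chr17:46795622-46795716: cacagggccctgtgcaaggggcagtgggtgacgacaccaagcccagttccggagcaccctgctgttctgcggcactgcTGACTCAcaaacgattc
Intergenic, nearest TSS PLA2R1, chr2:160075313-160075400: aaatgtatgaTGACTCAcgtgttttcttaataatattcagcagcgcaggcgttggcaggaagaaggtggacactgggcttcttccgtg
In the next pair the capitals mark a match to the CTCF core CCANNAGNNGGC.
Intergenic, nearest protein-coding TSS H2BC13, chr6:27772568-27772648: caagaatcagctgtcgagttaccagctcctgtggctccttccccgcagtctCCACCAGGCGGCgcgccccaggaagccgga
Intergenic, nearest protein-coding TSS SLC25A33, chr1:9495381-9495461: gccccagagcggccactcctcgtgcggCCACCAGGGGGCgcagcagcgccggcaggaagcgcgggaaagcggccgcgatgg
The last 3 were the peaks with the highest −log10 p of all 3328, with every GGAA core in capitals (TTCC where it lay on the minus strand).
CELSR1 intron, chr22:46488114-46488214: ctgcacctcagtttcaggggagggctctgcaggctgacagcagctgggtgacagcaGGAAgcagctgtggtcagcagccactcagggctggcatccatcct
Intron of the lncRNA gene ENSG00000232413, chr9:126082823-126082923: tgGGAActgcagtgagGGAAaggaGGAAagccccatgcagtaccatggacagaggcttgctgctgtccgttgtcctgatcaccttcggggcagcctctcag
REPS2 intron, chrX:16956641-16956741: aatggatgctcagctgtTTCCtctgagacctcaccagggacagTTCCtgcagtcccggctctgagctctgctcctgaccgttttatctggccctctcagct
The strongest 3 peaks thus held GGAA cores close to the summit that were not in tandem, with no octamer, no tandem run, no AP-1 and no CTCF match within 100 bp.

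Control-only distal peaks were weak. Strength was described by the fold enrichment of the summit over its local background as the authors' peak caller gave it, and by the number of DNA fragments piled up at the summit, which was solved from the fold and −log10 p. These peaks were chosen on the absence of a call in the other list, which bears on their strength, so the following values are a description. The median fold enrichment was 4.79, with a range from 2.74 to 21.9, and the median pileup was 10 fragments, with a range from 6 to 44. In shared distal peaks the medians were 6.67 and 16 fragments. The median control-only distal peak thus had 6 fragments fewer at its summit, and counts of this size carry a large counting error. Of the 3328 peaks, 800 had 6 to 8 fragments, 920 had 9 or 10, 929 had 11 to 13, 588 had 14 to 19, and 91 had 20 or more. Their median width was 278 bp, against 354 bp for shared distal peaks.

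Ranked by −log10 p within the control list, 3008 of the 3328 (90.4%) fell below the list's median, 49 were among the top 10000, 3 among the top 5000 and 0 among the top 1000. The best rank was 2402. The local background was at the lowest value of the library, 1.06 fragments, under 951 of the summits (28.6%). In the IFN-γ list the lowest background was 1.54 fragments, and the ratio of 1.46 was taken as the relative depth. The lists do not give the fragments that the IFN-γ library had at these positions.

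Control-only distal peaks lay inside genes about as often as other distal peaks did, and mostly in introns. By the position of the summit, 1699 (51.1%, 49.3% to 52.8%) were in introns, 1493 (44.9%, 43.2% to 46.6%) were intergenic and 136 (4.09%, 3.44% to 4.82%) were in exons. Ranges after shares are exact Clopper-Pearson 95% confidence intervals, which cover counting error over peaks of 1 library only, since peaks are not replicates. Introns of protein-coding genes held 1287 of the summits and introns of non-coding genes alone held 412. The exonic summits consisted of 40 in coding sequence, 56 in untranslated regions and 40 in non-coding exons.

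Exons were slightly more frequent than in the other sets. The exonic share was 3.03% in shared distal peaks and 2.69% in IFN-γ-only distal peaks, and the differences were 1.05 percentage points (Newcombe 95% interval 0.337 to 1.85) and 1.39 points (0.696 to 2.17). Coding sequence alone held 1.20%, 0.633% and 0.557% of the 3 sets. The intergenic share differed from that of shared distal peaks by 1.00 points, with an interval from −0.941 to 2.96 that included 0. The intronic share was lower by 2.06 points (−4.02 to −0.0977).

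The distance to the nearest TSS had a median of 12963 bp. Between 3 and 10 kb lay 1319 peaks (39.6%), between 10 and 50 kb 1604 (48.2%), between 50 and 100 kb 294 (8.83%), and beyond 100 kb 111 (3.34%). The shared distal peaks had close to the same profile, with 37.9% between 3 and 10 kb and 3.37% beyond 100 kb. Of the IFN-γ-only distal peaks, 33.9% lay between 3 and 10 kb and 5.44% beyond 100 kb. The peaks just past the 3 kb limit were 3002 bp from SMIM1, 3012 bp from EIF3A and 3014 bp from ENSG00000267125, with fold enrichments of 4.06, 4.87 and 7.97. Control-only peaks just inside the limit, which therefore counted as promoter peaks, were 2999 bp from PTPN3 and 2997 bp from SYT8 and ENSG00000231336, with fold enrichments of 4.27, 3.89 and 3.74. The farthest from any TSS were an intergenic peak on chromosome 5 at 544 kb, and a peak in an intron of LINC02476 on chromosome 7 at 362 kb.

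The motif content set the control-only distal peaks apart from the others more than their location did. Tandem GGAA runs were far less frequent than under the other distal summits, though above their flanks, while CTCF cores and GC boxes were more frequent. Motifs were searched on both strands in the 201 bp centred on each summit, and in windows of that length 1 kb to either side, which serve as the background. A match describes the letters and does not show that the factor was bound.

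A run of at least 4 GGAA units was found under 68 of the 3328 summits (2.04%, 1.59% to 2.58%) and in 0.150% of their flanking windows. The share was 17.0% in shared distal peaks and 16.5% in IFN-γ-only distal peaks. The difference from shared distal peaks was −14.9 percentage points (−15.8 to −14.0). Control-only distal peaks were also weaker, so the shares were compared by class of pileup. They ranged from 1.75% to 2.26% over 4 classes of pileup in control-only distal peaks, and from 14.7% to 22.7% in shared distal peaks of the same classes. The gap was thus present in every class, including summits of 6 to 8 fragments, where the shares were 1.75% and 22.7%. The highest class, 14 fragments or more, reached 44 fragments in control-only and 327 in shared distal peaks, so pileup was not equal in it. Between summits of 14 to 19 fragments in both sets the shares were 2.04% and 17.7%, a difference of −15.6 points (−17.2 to −13.6). Where control-only distal peaks did hold a run, 32 had 4 or 5 units, 15 had 6 to 9 and 21 had 10 to 15. Of the 68 peaks with a run, 57.4% were intergenic and none were exonic.

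Single ETS octamers were enriched at the summits of control-only distal peaks, though less often present than elsewhere. The octamer CAGGAAGT or CCGGAAGT lay under 281 summits (8.44%, 7.52% to 9.44%), against 1.31% of flanking windows. In shared distal peaks the share was 13.2%, a difference of −4.74 points (−5.86 to −3.55), and in IFN-γ-only distal peaks it was 11.3%. With summits of at most 10 fragments in both sets, the difference was −1.23 points with an interval from −3.09 to 0.594, so at low pileup no difference in the octamer was detectable. At 14 to 19 fragments it was −2.05 points, and that interval (−4.68 to 0.991) included 0 as well. The share rose from 6.13% of control-only distal peaks with 6 to 8 fragments to 10.9% of those with 14 or more. The 4-base core GGAA was under 96.5% of the summits and in 83.6% of the flanking windows, and a summit window held a median of 3 cores against 4 in shared distal peaks.

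AP-1 was the most frequent of the longer motifs. TGANTCA lay under 774 summits (23.3%, 21.8% to 24.7%) and in 6.46% of flanking windows. Shared and IFN-γ-only distal peaks both had 29.2%, and the difference from shared distal peaks was −5.94 points (−7.61 to −4.23). It was −3.94 points (−6.87 to −1.02) among summits of at most 10 fragments and −3.82 points (−6.13 to −1.42) among the rest, where shared distal peaks had the higher pileups. At 14 to 19 fragments it was −3.22 points, with an interval from −7.03 to 0.843 that included 0. Between windows with 45% to 55% G and C it was −2.87 points (−5.59 to −0.0428). The narrower forms TGACTCA or TGAGTCA were under 18.3% of control-only and 23.1% of shared distal summits. Both an octamer and AP-1 were under 49 summits (1.47%), against 3.94% of shared distal and 3.28% of IFN-γ-only distal summits.

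CTCF cores went the other way. CCANNAGNNGGC was under 135 summits (4.06%, 3.41% to 4.78%), in 0.856% of flanking windows, and under 2.11% of shared distal and 1.62% of IFN-γ-only distal summits. The difference from shared distal peaks was 1.95 points (1.26 to 2.72). Within control-only distal peaks the share was 2.50% at 6 to 8 fragments and 2.07% at 9 or 10, then 5.17% at 11 to 13 and 7.07% at 14 or more. The better supported summits were therefore the ones with more CTCF cores, and at 14 or more fragments shared distal peaks had 2.51%. At 14 to 19 fragments the shares were 6.12% and 2.03%, a difference of 4.1 points (2.34 to 6.38). Among summits of at most 10 fragments the difference was 0.604 points, with an interval from −0.398 to 1.59 that included 0. Peaks with the core lay closer to a TSS, at a median of 9944 bp, and had 60.2% G and C under the summit in the median.

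Control-only distal summits were also richer in G and C. Their windows had a mean of 52.2% G and C, against 49.6% in shared distal and 44.5% in IFN-γ-only distal peaks, and the flanking windows had 46.6%, 44.7% and 42.1%. The GC box GGGCGG was under 407 summits (12.2%), 9.03% of shared distal and 3.55% of IFN-γ-only distal summits, and in 5.86% of the flanking windows of control-only distal peaks. The difference from shared distal peaks was 3.20 points (1.98 to 4.48), 6.41 points (4.48 to 8.33) among summits of at most 10 fragments and 4.26 points (1.67 to 7.27) at 14 to 19 fragments. It was 1.17 points (−0.174 to 2.72), an interval that included 0, between windows with 45% to 55% G and C. Base composition thus moved with the GC box. In that same band of composition the differences for the GGAA run, the octamer, AP-1 and CTCF were −18.9, −5.10, −2.87 and 1.09 points, with intervals that left out 0, that of AP-1 narrowly. How far base composition accounts for the motif shares was not tested.

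A motif of interferon signalling was near its background. ISRE-like TTTCNNTTTC, the form bound by interferon regulatory factors, was under 3.28% of the summits and in 2.70% of the flanking windows. It was under 7.14% of shared distal and 13.9% of IFN-γ-only distal summits, and its letters can include the GGAA core. The difference from shared distal peaks was −3.87 points (−4.63 to −3.04). Of the other motifs searched, the RUNX motif TGTGGT was at 13.6% in summit and flanking windows alike, and the TEAD motif GGAATG, which contains the ETS core, was at 15.8% and 10.8%. For neither did the interval of the difference from shared distal peaks leave out 0, and it ran from −0.0369 to 2.63 points for RUNX and from −1.24 to 1.62 points for TEAD. The interval also included 0 for the NF-κB motif GGGNNTTTCC, the FOX motif TGTTTAC, the GATA motif AGATAA, the p53 family motif and runs of CA or of A. It left out 0 for 3 others. The C/EBP motif TTGCNNAA was under 10.04% of control-only and 12.7% of shared distal summits, a difference of −2.71 points (−3.89 to −1.47), and in 8.58% and 9.62% of their flanks. The glucocorticoid receptor motif GNACANNNTGTNC was rare, under 17 of the 3328 summits (0.511%) and 0.251% of shared distal summits, 0.260 points apart (0.0339 to 0.576). Runs of GA were under 13 summits (0.391%) and 0.854% of shared distal summits, a difference of −0.463 points (−0.721 to −0.142).

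The positions of the motifs relative to the summit differed. Octamer centres lay at a median of 27.5 bp from the summit, and 46.1% were within 25 bp. The median was 32 bp for GGAA runs, 38.5 bp for CTCF and 42 bp for AP-1, of which 30.9% were within 25 bp. AP-1 reached 72.7 matches per 1000 peaks in the 50 bp next to the summit and 16.2 and 22.2 at the outer edges of the 500 bp examined on each side, while the octamer reached 34.9 and fell to 11.7 in the next 50 bp on that side. None of the octamer, the run, AP-1 or CTCF was present under 2138 of the 3328 summits (64.2%, 62.6% to 65.9%), against 43.8% of shared distal and 45.9% of IFN-γ-only distal summits. Those 2138 peaks had a median pileup of 10 fragments, equal to that of the whole set.

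The peaks with the highest −log10 p were mostly outside genes and without the octamer, the run, AP-1 or CTCF, though some held others of the motifs searched. Of the first 10, 7 were intergenic and 3 intronic, 9 held a GGAA core under the summit, and 0 held an octamer, a run, AP-1 or CTCF. The first lay in an intron of CELSR1, which encodes a cadherin of planar cell polarity, at chr22:46487875-46488611, with 44 fragments, a fold enrichment of 21.9 and a −log10 p of 55.5. The second, in an intron of the lncRNA gene ENSG00000232413 on chromosome 9, had 42 fragments and a fold enrichment of 18.4. The third, with 40 fragments and a fold enrichment of 13.04, was in an intron of REPS2, an adaptor of receptor endocytosis. After these 3 the fold enrichments of the first 10 ranged from 10.5 to 14.5. These included a peak near SYNDIG1L on chromosome 14 with 28 fragments, a peak 319 kb from HNF4G, a nuclear receptor gene, with 31 fragments, and a peak 3995 bp from the homeobox gene NKX1-1 with 25 fragments. Also among them was a peak 36.0 kb from EMP2, which encodes a membrane glycoprotein, with 27 fragments.

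Strong peaks of the smaller classes lay in or near genes of varied function. In exons, the highest fold enrichments were 11.7 in GSTO2, a glutathione transferase gene, 10.6 in the untranslated region of SUN2, which links the nuclear envelope to the cytoskeleton, and 10.6 near LINC02827. The peak of the MECOM intron, whose octamer is printed above, had 20 fragments and a fold enrichment of 10.2, and MECOM encodes a zinc finger transcription factor. The peak of the MGLL intron, in a monoacylglycerol lipase gene, had 26 fragments on a background of 2.68 and a fold enrichment of 7.34. The WNT3 peak, the highest of those with AP-1, had 23 fragments and a fold enrichment of 11.6. The CTCF-core peak near H2BC13 had 31 fragments, on a background of 2.50.

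Many control-only distal peaks lay near, but not on, a peak of the IFN-γ list. The gap to the nearest IFN-γ peak had a median of 11.6 kb, with quartiles of 3.83 and 32.6 kb. Within 500 bp there were 160 (4.81%), within 1 kb 310 (9.31%, 8.35% to 10.4%), within 5 kb 998 (30%), within 10 kb 1525 (45.8%) and within 100 kb 3062 (92.0%). Spacing within the control list was nearly as close. Of the same peaks, 7.66%, 25.8% and 40.4% lay within 1, 5 and 10 kb of another control peak. For shared distal peaks these shares were 8.26%, 25.9% and 39.1%. Since the peaks were selected on not overlapping the IFN-γ list, the nearest distances describe the limit of the rule. The smallest gaps were 4 bp near CUX1, 6 bp in CLIP2 and 8 bp near SMARCC1, and the smallest overlaps among shared distal peaks were 1, 3 and 7 bp. Summits within 100 bp of an IFN-γ summit were found for 2 of the 3328.

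The control list itself was slightly farther away. The nearest other control peak was at a median of 15.1 kb, and 2121 of the 3328 (63.7%) were closer to an IFN-γ peak than to another control peak. The IFN-γ list held more peaks, 39654 against 30819. In the opposite direction, IFN-γ-only distal peaks had their nearest control peak at a median of 26.6 kb, with 4.16% within 1 kb. The IFN-γ peak nearest to a control-only distal peak was itself shared with the control list in 2000 cases (60.1%). The share of shared peaks over the whole IFN-γ list was not computed, so this count is a description. The nearest IFN-γ peak was distal in 2361 cases (70.9%) and at a promoter in 967 (29.1%). Of all 39654 IFN-γ peaks, 21027 were distal. The nearest IFN-γ peaks had a median pileup of 22 fragments, equal to that of the whole IFN-γ list.

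Near and far peaks had different sequences. The 310 peaks within 1 kb of an IFN-γ peak and the 266 more than 100 kb from one both had a median pileup of 10 fragments. The near peaks had 54.7% G and C in the median and the far ones 45.8%. A GGAA run was under 1 of the 310 (0.323%) and 20 of the 266 (7.52%). AP-1 was under 16.8% and 27.1%, the octamer under 5.81% and 10.9%, CTCF under 4.52% and 1.13%, and the GC box under 16.5% and 4.89%. The runs, AP-1 and the octamer were thus more frequent in the isolated peaks, and CTCF cores and GC boxes in those beside an IFN-γ peak. The most isolated were a peak on chromosome 11 near ENSG00000254828, 1332 kb from an IFN-γ peak, a peak on chromosome 5 near ENSG00000250122 at 1032 kb, and a peak on chromosome 9 near ENSG00000277109 at 865 kb, which held a run of 13 units. In the same order, they were 1600, 1049 and 2225 kb from any other control peak. Mappability was not used, so its part in such distances, and in the contrast of near and far peaks, was not tested.

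The peaks were spread over many genes. By nearest TSS of any gene type they belonged to 2885 genes, of which 2530 had 1 peak, 296 had 2 and 59 had 3 or more. The nearest TSS was that of a protein-coding gene for 1537 peaks (46.2%) and of an lncRNA gene for 1055 (31.7%). When each peak was given to the nearest protein-coding TSS instead, 2452 of 20046 protein-coding genes (12.2%) had a control-only distal peak. Of these 2452 genes, 1562 (63.7%) also had a shared distal peak and 517 (21.1%) had no other distal peak in either list. The same shares over all protein-coding genes were not computed, so these counts show neither co-location nor genes particular to the control library. Assignment by distance does not show which gene a region acts on.

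The gene with the most peaks was RXRA, the retinoid X receptor that pairs with many nuclear receptors. It had 7 by nearest TSS, 6 of them in its introns on chromosome 9, with fold enrichments from 3.13 to 4.79 and pileups from 6 to 12, and 6 shared distal peaks. In the order of the genome the 7 fold enrichments were 3.13, 4.79, 4.25, 3.85, 4.64, 3.82 and 3.65. None exceeded the median fold of control-only distal peaks, and 4 of the 7 lay within 1 kb of an IFN-γ peak. The windows had 67.7% G and C in the median, and 1 of the 7 held a CTCF core. SLC6A6, the taurine transporter gene, had 6 intronic peaks in 39.1 kb on chromosome 3 with fold enrichments from 3.32 to 4.94, and 2 of them held AP-1. COL22A1, a collagen gene on chromosome 8, also had 6, with fold enrichments from 3.74 to 6.82.

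IQSEC1, an exchange factor for ARF GTPases, had 5 intronic peaks with fold enrichments from 3.41 to 5.35. PTGIS, prostacyclin synthase, had 5 as well, 1 of them in the gene and 4 upstream, with fold enrichments from 3.50 to 6.84, beside 1 shared distal and 0 IFN-γ-only distal peaks. By nearest protein-coding TSS, RXRA had 9, and GSE1, SLC6A6, ST3GAL1 and WNT7B had 7 each. The 7 around WNT7B, a WNT ligand gene, spanned 122 kb of chromosome 22 with fold enrichments from 3.27 to 7.93. They lay beside 6 shared distal peaks and no IFN-γ-only distal peak. All peaks of these clusters had at most 18 fragments.

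Of 30 genes of the IFN-γ response, 6 (20%) were the nearest protein-coding gene of a control-only distal peak, beside 12.2% of all protein-coding genes. These were PSMB9, an immunoproteasome subunit, SOCS3, a feedback inhibitor of cytokine signalling, the kinase gene JAK1, the receptor gene IFNGR1, the transcription factor gene IRF2, and HLA-E, a class I molecule. Each had 1 peak. The PSMB9 peak, 5.12 kb from its TSS, had 21 fragments and a fold enrichment of 7.31. The SOCS3 peak, 3.64 kb away, had 11 fragments and 5.09, and the JAK1 peak, in its intron, had 11 fragments and 4.80. The peaks of IFNGR1, IRF2 and HLA-E had 10, 8 and 8 fragments. Except for PSMB9, these 6 were thus close to the median strength of control-only distal peaks or below it. The same 30 genes had 15 shared distal and 26 IFN-γ-only distal peaks, so 28.6% of their distal control peaks were control-only, next to 25.1% of all distal control peaks.

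Genes of epithelial identity and of adhesion had control-only distal peaks and several times as many shared distal peaks. The shares of genes in the following lists stand beside 12.2% of all protein-coding genes. A peak was counted for its nearest protein-coding TSS at any distance. Of 25 squamous and epithelial regulators, 12 (48.0%) had 25 control-only distal peaks and 83 shared distal peaks, and 23.1% of their distal control peaks were control-only. TFAP2A, TFAP2C and NOTCH1 each had 4, KLF5 had 3 and TP63, which specifies basal epithelium, had 2, both in its introns, with 15 and 14 fragments. The strongest of the list was 867 kb from TFAP2A, with 29 fragments and a fold enrichment of 9.41. Distances in this list ran from 3.96 kb, for NOTCH1, to that peak. The peaks of SOX2, JAG1 and KLF4 lay 522, 534 and 248 kb away, and those of KLF5 225 to 359 kb. Those of TP63 lay 74.2 and 15.9 kb away. Of 26 genes of cell adhesion and matrix, 14 (53.8%) had 21, among them COL5A1 with 4, and 25% of the distal control peaks of that list were control-only. Of 27 genes of TGF-β, WNT and Hippo signalling, 10 (37.0%) had 20, of which 7 belonged to WNT7B, and the control-only share was 22.5%. These shares were close to the 25.1% of all distal control peaks, and the length and spacing of the genes were not taken into account.

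The lists of the ETS family, the AP-1 family and chromatin modifiers had 5 or 6 control-only distal peaks each. Of 26 ETS genes, 4 (15.4%) had 5 peaks (ETV6 with 2, and ELK3, ELF3 and ELF5), beside 40 shared distal peaks, a control-only share of 11.1%. Of 17 AP-1 genes, 4 (23.5%) had 6 peaks, 3 of them nearest to FOSL2, beside 31 shared distal peaks, a share of 16.2%. Of 28 chromatin modifiers, 4 (14.3%) had 5 peaks (HDAC4 with 2, and HDAC5, ARID1B and SMARCC1) and the share was 20.8%. With 5 or 6 peaks per list these shares rest on small counts.

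By chromosome, control-only distal peaks were most dense on chromosome 20, at 2.27 per Mb, followed by chromosomes 17 and 19 at 1.84 and 1.74, and least dense on chromosome 18 at 0.323 and X at 0.468. Shared distal peaks had the same chromosomes at both ends of the order, with 5.97 per Mb on chromosome 20 and 1.19 on chromosome 18. The share of distal control peaks that were control-only varied less, from 21.0% (16.9% to 25.7%) on X to 28.9% (23.4% to 35%) on chromosome 22. Median backgrounds of the peaks ran from 1.06 to 1.57 fragments over the chromosomes, with the highest on chromosome 9.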

How the data were processed

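Peaks of 2 Flag ChIP libraries were analysed, and the input libraries are not analysed here. Upstream steps, as the methods describe them, were adapter trimming (cutadapt 1.18), alignment by the authors with Bowtie2 2.3.4.1 against GRCh38, removal of duplicates (Picard) and peak calling per library (MACS2 2.1.2). Whether the input entered calling is not given in the sources used here. The deposited narrowPeak lists give, per peak, fold enrichment at the summit (a ratio), −log10 of p and of q, a display score, which was not used, and the summit position. Read totals are not in the lists. The whole-number pileup and the background were solved from fold and −log10 p (a Poisson tail), with a largest relative error of 6.21e-06.

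TSSs and genes came from GENCODE 44, overlap needed 1 bp, and 24 motifs were searched on both strands. Ranges are Clopper-Pearson or Newcombe 95% intervals without p-values, since 1 library per condition allows no test. Peaks named were the highest by −log10 p, by fold within a location class and by motif, the nearest to and farthest from an IFN-γ peak, the farthest from a TSS, those at the limits of the rule, and the 5 genes with most peaks. The members, the 7 gene lists and the motifs were chosen with earlier results of these data known. Repeat and mappability annotations were not used here. Overlaps, gaps, TSS distances, nearest genes, location, pileup recovery and the Newcombe interval were tested on simulated data. So was the search for the octamer, the GGAA run, AP-1, CTCF and the GC box. The other steps were not. Tools were samtools 1.23.1, matplotlib 3.10.9 and, under Python 3.11.15, scipy 1.17.1, pysam 0.24.0, pandas 2.3.3 and numpy 2.4.6. The result of 1 of the motifs searched is not reported here.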

Additional observations from a re-analysis of the deposited data

How the results depend on the processing

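Of 65 alternatives, 10 concerned counts, 25 shares and 30 differences. Within 1.5 times of the count stayed 9 of 10, and within the 95% interval of the share 7 of 25. Direction and side of 0 were kept by 24 of 30 differences, 5 had an interval that came to include 0, and 1 changed sign, the intergenic difference, which was −0.0539 points between windows of 45% to 55% G and C and whose interval included 0 throughout. Requiring more than 10 kb to a TSS left 2009 peaks, a smaller number by construction, and counting only overlaps of at least 50% of each peak gave 4982. By any overlap of the whole peak, 49.3% were in introns and 6.01% in exons, and with protein-coding genes alone 38.8% were intronic, 3.28% exonic and 57.9% intergenic. Within 50 bp of the summit the shares were 6.16% for the octamer, 1.38% for the GGAA run and 12.8% for AP-1. Over whole peaks they were 10.4% for the octamer and 29.3% for AP-1. Among peaks with a q-value under 1e-05 they were 10.9% and 26.7%. CCGGAAGT alone was under 0.601% and GGAA under 96.5% of the summits. Runs of at least 2 units were under 11.9% and of at least 6 under 1.08%. The narrower AP-1 forms with the CRE form gave 18.4%. Between summits, 5.26% lay within 1 kb of an IFN-γ peak.

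The differences from shared distal peaks that no longer left out 0 were the octamer (−1.23 points) and CTCF (0.604 points) among summits of at most 10 fragments, the octamer (−2.05 points) and AP-1 (−3.22 points) at 14 to 19 fragments, and the GC box (1.17 points) between windows of 45% to 55% G and C. In each of these the difference itself was smaller. Others moved by over 1.5 times and still left out 0. They were the octamer at −2.82 and the GC box at 8.68 points against IFN-γ-only distal peaks, AP-1 at −2.87 and CTCF at 1.09 points in the G and C band, AP-1 at −3.94 and the GC box at 6.41 points among summits of at most 10 fragments, AP-1 at −3.82 and CTCF at 3.79 points above it, and CTCF at 4.1 points at 14 to 19 fragments. The cause was not tested. The settings for CTCF, the GC box, the G and C band and 14 to 19 fragments were chosen after seeing the data. No paired analysis was possible because neither treatment was repeated. Summits rest on a median of 10 fragments in the control library. Scaled by the depth ratio of 1.46, the median pileup was 14.6 fragments and the lowest 8.74. A call in the IFN-γ list needed 7 fragments at its lowest background. All 3328 scaled pileups reached the number needed, also at their own scaled background. The lists do not give the IFN-γ fragments at these positions, so unbound and weakly bound sites could not be told apart. Why the calls were missing was not tested.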
